A study of Mus musculus with 8 samples.

Results

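Chromatin accessibility was compared between the dorsal and the caudal ventral part of the wild-type embryonic mouse forebrain, the cortex (CTX) and the caudal ganglionic eminence (CGE). Of the 8 libraries of the series, 4 entered the comparison: CTX replicates 1 and 2 and CGE replicates 1 and 2, chosen by their region labels. They held 17597 of 39253 nuclei, with 4108 and 4946 nuclei for CTX and 4013 and 4530 for CGE. CTX replicate 1 and both CGE libraries were labelled E12.5 (embryonic day) and CTX replicate 2 E14.5, so that age and replicate could not be told apart within CTX. No label said how many embryos a library pooled or whether replicates came from separate litters, so p-values measure only the spread between these libraries. Each nucleus was profiled by single-nucleus ATAC-seq, in which the Tn5 transposase cuts DNA that is not wrapped in nucleosomes and the cut ends inside called peaks are counted. Counts were summed over all nuclei of a library, and the library was the unit of replication. In such sums, more open nuclei and more cuts per nucleus cannot be told apart.

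The cortex is the dorsal, or pallial, wall of the telencephalon. Its radial glia express Emx1, Emx2, Pax6 and the Dmrt factors, and through Neurog2, Eomes and the Neurod factors they give rise to neurons that release glutamate. The CGE lies in the ventral, or subpallial, wall: its progenitors express Gsx2 and the Dlx factors, and their progeny, which carry Nr2f2, Prox1 and Sp8, become interneurons of cortex and limbic structures that make GABA with Gad1 and Gad2. Regulatory DNA away from promoters carries binding sites of such lineage factors and is known to be opened in a lineage-specific way.

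The sequences that follow show such DNA at 5 loci, and some of the letters counted further on are marked in them. They are the central 300 bp (GRCm38, plus strand) of regions among those with the widest separation between CTX and CGE, taken from the ones at least 2-fold apart, away from start sites, whose nearest start site belonged to a listed cortical or radial glia gene (first set) or a listed subpallial gene (second set). Capitals mark every match, on either strand, to TTGGCA (nuclear factor I site), TAATTA (homeodomain core), TGACAG (MEIS site) and CAGCTG (a palindromic E-box). The differences described further on are shares over many windows, and single windows need not follow them. The Sox9 window, for example, held CAGCTG and the Neurog2 window TGACAG, letters more frequent in windows higher in CGE. The first 3 windows were more accessible in both CTX libraries:
Dmrta2 locus, intron of Faf1, chr4:109862817-109863116: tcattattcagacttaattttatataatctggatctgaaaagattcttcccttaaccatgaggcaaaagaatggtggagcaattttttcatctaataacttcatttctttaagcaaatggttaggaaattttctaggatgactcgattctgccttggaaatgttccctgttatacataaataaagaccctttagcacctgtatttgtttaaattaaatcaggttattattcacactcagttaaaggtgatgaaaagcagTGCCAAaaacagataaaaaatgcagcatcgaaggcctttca
Sox9 locus, intergenic, chr11:113056875-113057174: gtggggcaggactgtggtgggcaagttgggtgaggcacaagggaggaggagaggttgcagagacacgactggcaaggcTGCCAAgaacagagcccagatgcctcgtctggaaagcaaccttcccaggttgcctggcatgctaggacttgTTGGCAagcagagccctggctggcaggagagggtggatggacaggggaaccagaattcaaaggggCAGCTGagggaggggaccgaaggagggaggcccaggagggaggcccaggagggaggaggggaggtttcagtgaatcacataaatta
Neurog2 locus, intergenic, chr3:127652302-127652601: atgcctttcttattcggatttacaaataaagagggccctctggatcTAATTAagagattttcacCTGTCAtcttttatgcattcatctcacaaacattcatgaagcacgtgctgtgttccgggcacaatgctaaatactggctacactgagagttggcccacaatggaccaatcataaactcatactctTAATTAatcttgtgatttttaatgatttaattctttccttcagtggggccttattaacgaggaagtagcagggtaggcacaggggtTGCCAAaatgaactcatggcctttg

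The other 2 were more accessible in both CGE libraries, and the Npas3 window held 4 matches:
Npas3 locus, intron of Npas3, chr12:53566686-53566985: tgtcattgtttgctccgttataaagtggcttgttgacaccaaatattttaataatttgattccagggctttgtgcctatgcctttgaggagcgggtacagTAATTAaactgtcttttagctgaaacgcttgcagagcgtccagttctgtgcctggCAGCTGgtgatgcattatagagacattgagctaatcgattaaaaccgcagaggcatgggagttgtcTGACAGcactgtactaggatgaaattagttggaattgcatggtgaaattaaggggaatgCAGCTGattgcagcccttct
Isl1 locus, intergenic, chr13:116497775-116498074: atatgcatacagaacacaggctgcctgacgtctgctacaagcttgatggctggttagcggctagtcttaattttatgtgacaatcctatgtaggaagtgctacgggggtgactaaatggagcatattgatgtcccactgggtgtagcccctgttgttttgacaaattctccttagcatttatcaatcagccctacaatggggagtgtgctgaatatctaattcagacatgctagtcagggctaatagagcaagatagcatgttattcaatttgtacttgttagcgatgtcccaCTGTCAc

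Libraries held between 87330827 and 138873845 counts in 144195 to 182638 peaks, and any pair of libraries shared 17 to 36 cell barcodes. The tissue labels matched their markers. Emx1, a homeobox factor of pallial progenitors, had gene counts of 130.0 and 173 CPM (counts scaled by the effective size of the library) in CTX replicates 1 and 2 against 43.9 and 39.7 CPM in CGE replicates 1 and 2. Dlx1, a homeobox factor of subpallial progenitors and their GABAergic progeny, was at 53.6 and 51.0 CPM in CTX against 294 and 331 CPM in CGE. The share of counts in regions at start sites was 39.5% and 47.6% in CTX and 49.7% and 52.0% in CGE, so it also separated the tissues. Scaling on these regions changed how many regions lay higher and lower in CTX, with the values given below. A gene count here is the sum over a library's own peaks that overlap the gene body or the 2000 bp upstream of it, so it grows with the length those peaks cover. Per covered kb, Emx1 was at 8.4 and 6.63 CPM in CTX and at 5.65 and 4.9 CPM in CGE, and Dlx1 at 7.96 and 5.26 against 11.7 and 12.8 CPM. With the covered length as an offset in the fit, the log2 fold of Emx1 became 0.51 in place of 1.86 and that of Dlx1 -0.89 in place of -2.58. Over the 98 listed or called genes whose groups did not overlap, the median size of the log2 fold went from 0.74 to 0.34, and it was smaller in 92 of them. Markers of other cell types were also summed, and their part in the differences below was not tested. The summed level of 7 endothelial markers ran from 182 to 231 CPM in CTX and from 146 to 199 CPM in CGE, that of the 5 of 7 microglial markers that passed the filter on low counts from 173 to 228 and from 168 to 178 CPM, and that of 6 mural or mesenchymal markers from 150.0 to 212 and from 162 to 175 CPM. Of 6 erythroid markers, 2 passed that filter, at 33.9 to 41.9 and 27.7 to 27.8 CPM together, and Hba-a1 had no count in any library.

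The 2 CTX libraries differed from each other more than the 2 CGE libraries did. The standard deviation of the log2 ratio between replicates was 0.69 over 17204 genes in CTX and 0.39 in CGE, and over 91976 regions it was 1.12 and 0.44. Over genes, log2 CPM correlated at 0.926 within CTX, at 0.977 within CGE and at 0.92 to 0.941 between tissues. Over regions the values were 0.787, 0.966 and 0.773 to 0.821. The CTX pair was thus no more alike than pairs of a CTX and a CGE library. The difference between the CTX libraries lay partly in genes that are known to change with age. Neurod2, a factor of postmitotic glutamatergic neurons, was at 169.8 CPM in the library labelled E12.5 and at 16.9 CPM in the library labelled E14.5. Lin28a, an RNA-binding protein of early progenitors, was at 4.13 and 45.9 CPM. Of 12 late radial glia genes, 10 were higher in the library labelled E12.5, as were 6 of 7 neuron markers. All 8 progenitor markers and 6 of 8 early progenitor genes were lower in it. Over all 17204 genes tested, 8482 were higher in it and 8653 lower. Other lists leaned to one side as well. Higher in it were 11 of 12 migration and guidance receptors and 10 of 13 cortical layer factors, and lower were all 12 pallial patterning factors. The order of Neurod2, Lin28a and the radial glia, neuron and progenitor lists went against the age labels of the 2 CTX libraries. What lay behind it was not tested. Below the 2 CTX libraries are called CTX replicate 1 and CTX replicate 2 without an age. Sp8 and Wnt8b, a factor and a ligand of the dorsomedial telencephalon among other places, stood out in CTX replicate 2, with 287 and 247 CPM against 50.7 and 39.3 CPM in CTX replicate 1. For Sp8 and Wnt8b the CTX values did not lie together on one side of CGE.

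**Figure D1:**
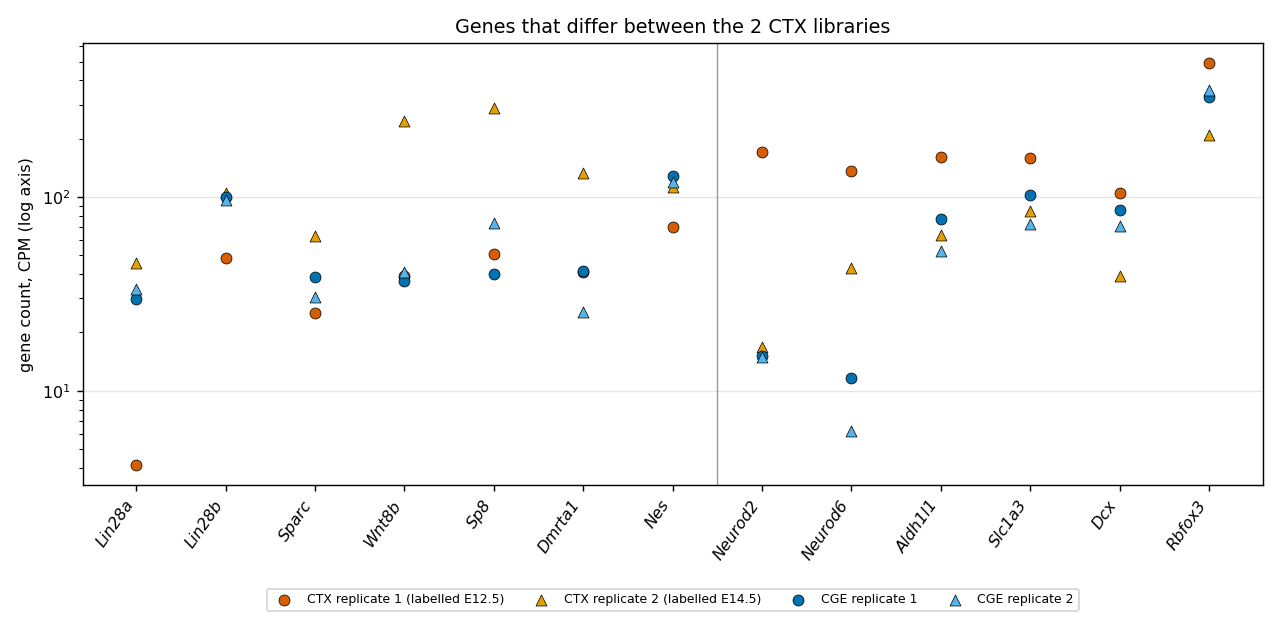
Gene counts (CPM, log axis) of 13 genes chosen after their values were seen, in CTX replicate 1 (orange circles), CTX replicate 2 (yellow triangles), CGE replicate 1 (blue circles) and CGE replicate 2 (light blue triangles). Genes left of the line were higher in CTX replicate 2, such as Lin28a at 45.9 against 4.13 CPM, and genes right of it higher in CTX replicate 1, such as Neurod2 at 169.8 against 16.9 CPM.

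Across genes, the test of CTX against CGE called very few. In edgeR's quasi-likelihood test with Benjamini-Hochberg adjustment, 4 of 17204 genes (0.0233%) had an adjusted p of 0.05 or less with both CTX libraries above both CGE libraries, and 0 genes (0.0%) in the opposite direction. At an unadjusted p under 0.05 there were 1511 genes (8.78%), and DESeq2 called 764 with the same requirement of no overlap, 574 of them higher in CTX. With 2 libraries against 2, an exact two-sided permutation test of one gene could not go below 0.333. Each result below is therefore also given by its order: a gene is described as higher in CTX where both CTX libraries lay above both CGE libraries. That held for 3014 genes (17.5%), and the opposite for 2889 genes (16.8%), which is the background for every list. At least 2-fold separation was found for 326 genes (1.89%) above CGE and 165 genes (0.959%) below.

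For the 4 called genes, Mia, Nxnl1, Rhbg and Gm38392, the size of the fold depended on where a peak ended. Mia (chr7, secreted by cartilage and melanoma cells) had 8826 and 8574 counts in CTX and 0 in both CGE libraries. The strong peak beside it, at the Rab4b promoter, had 8673, 8574, 7441 and 8919 counts in the 4 libraries, and it reached the window of Mia by 1 bp and 1648 bp in CTX but ended 28 and 113 bp short of it in CGE. Nxnl1 took most of its CTX counts from the edge of the peak at the Slc27a1 promoter, which overlapped its window by 304 and 122 bp in CTX and missed it by 18 and 178 bp in CGE. Unlike the peak at Rab4b, this one was itself higher in CTX, at 80.0 and 84.4 against 48.1 and 48.9 CPM. Rhbg, an ammonium transporter, and Gm38392 overlap each other, and both took in a single CTX peak with 81576 and 69531 counts. In CGE the same stretch, a merged region of 48081 bp, was split into several peaks, and its 39699 and 37584 counts fell mostly in peaks outside these genes. As a whole that region was also higher in CTX, at 703 and 867 against 455 and 458 CPM. Peaks that no other gene shared held none or few of the counts of these genes, at most 19.6%.

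Each gene was then summed over the merged regions that held a peak of all 4 libraries, called common regions. None of these 4 genes passed and 15 of 16542 did, 11 higher in CTX (0.0665%) and 4 lower (0.0242%). Within a common region each library still counted only its own peaks, so these sums also grow with the covered length. The log2 fold went from 16.03 to -0.07 for Mia and from 3.33 to 0.72 for Nxnl1. It went from 4.31 to 0.8 for Rhbg and from 4.27 to 0.8 for Gm38392. Emx1 was among the 11. On this scale it was at 191 and 171 CPM in CTX and at 49.7 and 45.7 CPM in CGE, which on the log2 scale was a difference of 1.92 (SE 0.19) with an edgeR adjusted p of 0.0471. Gsx2, the homeobox factor that sets lateral subpallial identity, was among the 4, at 10.0 and 13.7 CPM against 47.3 and 46.5 CPM, which was -1.99 (SE 0.23) with the same adjusted p. Bmp5, a ligand of dorsal midline tissue, was at 13.7 and 14.2 CPM against 2.02 and 1.64 CPM. Also higher were Hspb8, a small heat shock protein, at 56.1 and 92.2 against 17.7 and 15.1 CPM, and Aldoc, a glycolytic aldolase of radial glia and astrocytes, at 45.0 and 35.9 against 4.90 and 4.36 CPM, though Aldoc had 9.09% of its counts in peaks of its own. Sytl3, a vesicle protein, was at 38.3 and 34.5 against 9.82 and 8.75 CPM. The remaining genes called higher were 5530401A14Rik, Gm1113, Gm11146, Ifi44l, Opn1sw and Serpinb1b, and those called lower were Gast, Glyctk and Iqca. Gast, the gastrin gene, was at 3.34 and 3.24 CPM in CTX against 22.8 and 38.7 CPM in CGE. This way of summing was added after the first result had been seen.

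Pallial patterning factors stood above CGE in both CTX libraries for 8 of 12 genes and below for 1, with a median log2 fold of 0.61 against -0.01 over all genes tested. None of the 12 passed the adjusted test on gene sums, and Emx1 alone passed over common regions. Emx2, which with Emx1 patterns the medial pallium, was at 207 and 357 CPM in CTX and at 127 and 159.6 CPM in CGE. Lhx2, which holds cortical fate against hem and antihem, was at 356 and 433 against 235 and 253 CPM. Of the 3 Dmrt factors of medial progenitors in the list, Dmrta2 was at 191 and 306 against 113 and 106 CPM, and Dmrt3 at 131 and 257 against 56.2 and 51.6 CPM (log2 fold 1.85, SE 0.35, edgeR adjusted p = 0.256). Dmrta1 overlapped, with 40.8 and 133 CPM in CTX against 41.6 and 25.4 CPM in CGE. In each of the 12 genes CTX replicate 1 was lower than CTX replicate 2, so the distance to CGE depended on the library. Pax6, of dorsal radial glia, was at 279 and 304 against 254 and 242 CPM (log2 fold 0.24, SE 0.18). Fezf1, a repressor of rostral forebrain, was the 1 factor lower in CTX, at 55.1 and 71.6 against 88.4 and 92.9 CPM.

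Glutamatergic lineage factors were higher in both CTX libraries for 6 of 9 genes and lower for none, with a median log2 fold of 0.76. None passed the adjusted test. Neurog2, the proneural factor that starts pallial neurogenesis, was at 117 and 153 CPM in CTX and 71.6 and 68.2 CPM in CGE. Eomes, of intermediate progenitors, was at 116 and 70.2 against 39.4 and 60 CPM, with a log2 fold of 0.9 that the covered-length offset took to 0.06. Neurod6, of postmitotic cortical neurons, was at 136 and 43.0 CPM against 11.6 and 6.18 CPM, the widest ratio of the list (log2 fold 3.33, SE 0.63, edgeR adjusted p = 0.256). Tbr1, Neurog1 and Neurod4 overlapped between tissues. Of the vesicular glutamate transporters, Slc17a7 was higher in both CTX libraries, at 101 and 59.5 against 42.0 and 36.2 CPM, while Slc17a6 and Slc17a8 overlapped.

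Cortical layer factors were mixed, with 5 of 13 higher in both CTX libraries and 3 lower. Fezf2, which specifies deep-layer projection neurons and also marks pallial progenitors, was at 269 and 382 CPM in CTX and at 162 and 137 CPM in CGE. Sox5, of deep layers, was at 1177 and 811 against 612 and 570.4 CPM. Pou3f2, Pou3f3 and Rorb were lower in CTX, but with the covered-length offset the log2 fold was 0.0 for Pou3f2 and -0.01 for Rorb.

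The nuclear factor I genes Nfia, Nfib and Nfix were higher in both CTX libraries. Nfib was at 1533 and 1094 CPM in CTX and at 563 and 459 CPM in CGE. Nfia was at 916 and 672 against 399 and 329 CPM. Nfix was at 1014 and 592 against 271 and 230.0 CPM, the widest of the 3 (log2 fold 1.68, SE 0.31, edgeR adjusted p = 0.256). These factors bind TTGGCA sites and move radial glia toward glial fate. They were part of the late radial glia list, in which 5 of 12 genes were higher in both CTX libraries and none lower, with a median log2 fold of 0.57. Both CTX libraries exceeded CGE for the 3 genes, with CTX replicate 1 above CTX replicate 2 in each. The covered-length offset left a log2 fold of 0.03 for Nfib, 0.1 for Nfia and 0.79 for Nfix. Sums over common regions, which are not scaled by covered length, gave 1.25, 0.99 and 1.69. Early progenitor genes were higher in both CTX libraries for 3 of 8, namely Igf2bp2, Igf2bp3 and Sfrp1, though with only peaks near start sites the log2 fold went from 0.29 to -0.07 for Igf2bp3 and from 0.68 to 0.14 for Sfrp1.

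The opposite order was found for the GABAergic lineage factors, of which 12 of 13 were lower in both CTX libraries and none higher, with a median log2 fold of -1.12. That stood beside 16.8% of all genes, and 6 of the 13 were at least 2-fold below CGE. Dlx1 came nearest to the threshold (log2 fold -2.58, SE 0.19, edgeR adjusted p = 0.0744), followed by Dlx5, at 67.1 and 68.0 CPM in CTX against 298 and 302 CPM in CGE (log2 fold -2.15, SE 0.18, edgeR adjusted p = 0.0773). Dlx1 and Dlx2, and likewise Dlx5 and Dlx6, are neighbouring pairs that share most of their peaks and do not count as separate observations. Six3, a homeobox factor of the lateral eminence, was at 39.6 and 72.3 against 171 and 197 CPM. Sp9, of migrating interneuron precursors, was at 62.3 and 67.2 against 110.4 and 139 CPM. Olig2, of ventral progenitors, was at 49.3 and 42.3 against 91.3 and 108 CPM.

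All 4 GABA transmitter genes were lower in both CTX libraries (median log2 fold -1.46), though none passed the adjusted test. Gad2, which makes GABA at the synapse, was at 37.1 and 43.0 CPM in CTX and at 119 and 123 CPM in CGE (log2 fold -1.59, SE 0.18, edgeR adjusted p = 0.121). Gad1, which makes most of the GABA of the cell, was at 69.3 CPM in both CTX libraries and at 113 CPM in both CGE libraries. Slc32a1, which loads GABA into vesicles, was at 28.7 and 18.8 against 64.7 and 89.3 CPM.

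**Figure D2:**
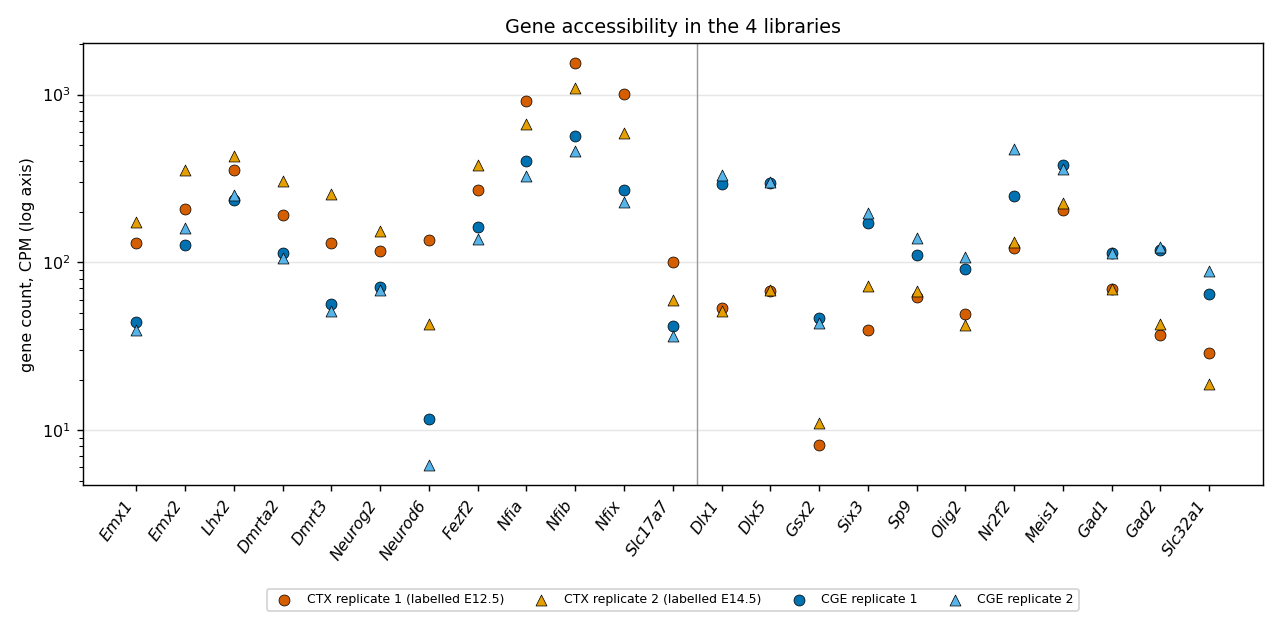
Gene counts (CPM, log axis) of 23 lineage genes in CTX replicate 1 (orange circles), CTX replicate 2 (yellow triangles), CGE replicate 1 (blue circles) and CGE replicate 2 (light blue triangles). For the 12 genes left of the line both CTX points lie above both CGE points, and for the 11 right of it below, with Neurod6 at 136 and 43.0 against 11.6 and 6.18 CPM as the widest spread within CTX.

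Genes of CGE and its interneurons were split: 4 of 12 were higher in both CTX libraries and 4 lower, with a median log2 fold of 0.11. Over common regions, where Vip had no value, 4 of 11 were higher and 5 lower, with a median of -0.15. Nr2f2, the orphan nuclear receptor that marks the CGE, was lower in CTX, at 122 and 133 CPM against 249.9 and 476 CPM (log2 fold -1.51, SE 0.34, edgeR adjusted p = 0.294). Prox1, which specifies CGE interneurons, was at 104 and 94.0 against 124 and 131 CPM. Htr3a, the ionotropic serotonin receptor of mature CGE interneurons, lay the other way, at 23.3 and 33.5 CPM in CTX and at 6.70 and 2.17 CPM in CGE. Vip, a peptide of mature interneurons, had 1.39 and 1.52 CPM in CTX and no peak in CGE. Of 12 striatal projection neuron factors, 5 were lower in both CTX libraries and 1 higher. Meis1, a homeobox cofactor of the lateral eminence, was among them at 206 and 225 against 381 and 358 CPM (log2 fold -0.78, and -0.06 with the covered-length offset), and Isl1, of striatonigral neurons, at 35.7 and 65.3 against 81.2 and 110.0 CPM. MGE factors were lower in both CTX libraries for 5 of 8 genes, with Nkx2-1, the factor that sets medial eminence fate, at 18.4 and 24.1 against 37.6 and 31.1 CPM.

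Of 12 hem and Cajal-Retzius genes, 6 were higher in both CTX libraries and 1 lower. Lmx1a, of the cortical hem and roof plate, was at 119 and 184 CPM against 90.2 and 81.7 CPM, and Wnt3a, the hem ligand, at 28.4 and 43.7 against 12 and 13.8 CPM, a difference that the covered-length offset took to a log2 fold of -0.07. Of 12 migration and guidance receptors, 6 were higher and 1 lower. Unc5d, a netrin receptor of upper-layer neurons and their progenitors, was at 362 and 201 against 119 and 122 CPM, and Erbb4, the neuregulin receptor, at 271 and 329 against 187 and 187 CPM. When only peaks near start sites were counted, the log2 fold went from 1.23 to 0.25 for Unc5d and from 0.68 to 0.02 for Erbb4. Ackr3, the scavenger receptor that tunes Cxcl12 for migrating interneurons, was the 1 lower gene, at 48 and 44.5 against 85.7 and 92.2 CPM. Of 8 shared progenitor markers 1 was higher and 2 lower, and of 7 neuron markers 0 were higher and 2 lower. The 7 endothelial markers split into 2 higher and 1 lower, the 5 tested microglial markers into 1 and 2, the 2 tested erythroid markers into 1 and 0, and the 6 mural or mesenchymal markers into 1 and 0.

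**Figure D3:**
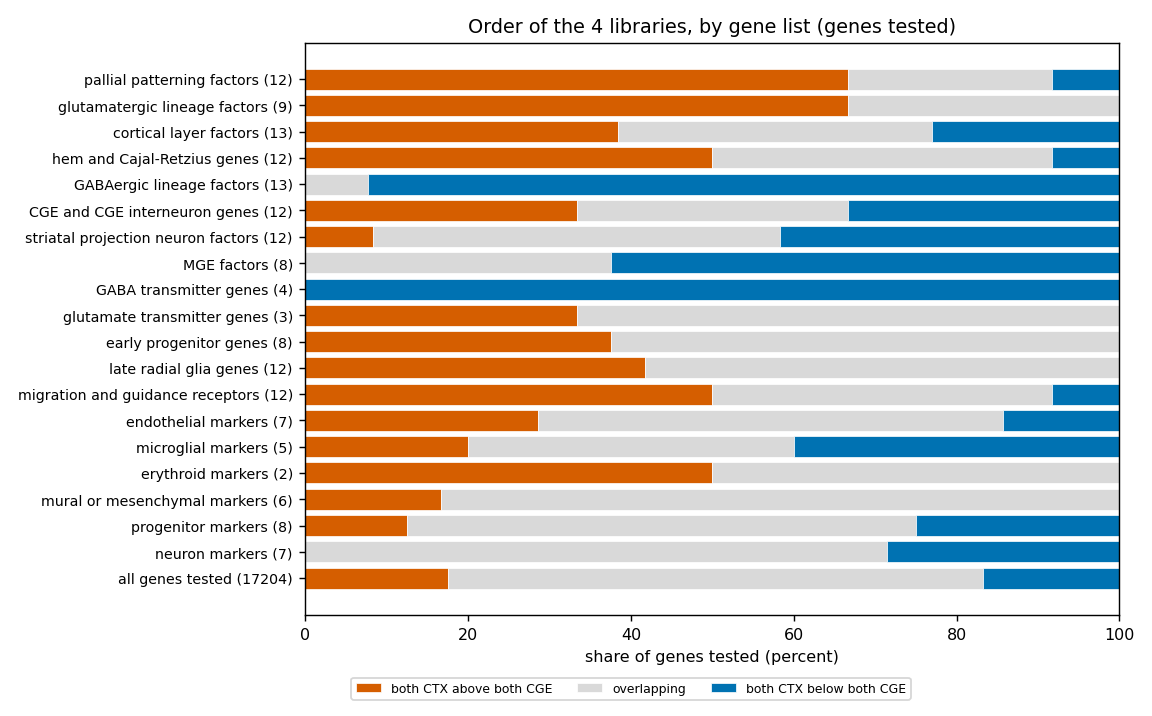
Share of the genes tested in each list (percent, number of genes in brackets) with both CTX libraries above both CGE libraries (orange), with overlapping values (grey) or with both CTX libraries below (blue). GABAergic lineage factors (12 of 13 below) and GABA transmitter genes (4 of 4 below) stand apart from all genes tested (16.8% below).

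The order of these lists was set against each CTX library on its own. With CTX replicate 2 alone against the CGE pair, 7 pallial factors were called higher and 7 GABAergic factors lower, and with CTX replicate 1 alone, 3 and 9. In these fits the lone CTX library is assumed to vary like the CGE pair, which was the tighter pair. For Emx1 the log2 fold was 2.02 with CTX replicate 2 alone and 1.63 with CTX replicate 1 alone, and for Dlx1 it was -2.64 and -2.56. Neurod6 depended more on the library, with a log2 fold of 2.26 with CTX replicate 2 alone and 3.92 with CTX replicate 1 alone. Over all genes of these fits, 553 of 17497 were called higher and 358 lower with CTX replicate 2 alone, and 1463 of 17498 higher and 253 lower with CTX replicate 1 alone.

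Regions were the merged peaks of the 4 libraries. Of 272248 merged regions, 91997 (33.8%) held a peak of each library. A peak of both CTX libraries and of neither CGE library was found in 12256 regions (4.5%), and of both CGE libraries and neither CTX library in 15832 (5.82%). Among peaks of at least 100 counts the order was the other way, with 9395 (5.68%) and 8972 (5.42%) of 165439 regions. CTX replicate 1 alone accounted for 46669 and CGE replicate 2 alone for 29496. In base pairs, the Jaccard index, the shared over the joint peak length, was 0.723 between the CGE libraries and 0.513 between the CTX libraries. Between tissues it ran from 0.495 to 0.573, and the value of the CTX pair lay within that range.

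No region passed the test. Of 91976 regions tested in edgeR's quasi-likelihood test, 0 (0.0%) were called in either direction, 13494 (14.7%) had an unadjusted p under 0.05, and DESeq2 called 8605. Both CTX libraries lay above both CGE libraries in 20973 regions (22.8%) and below in 20468 (22.3%). To lessen the part that the ends of each library's peaks play in these counts, 58760 regions were kept in which each library's peaks covered at least 0.5 of the width and each library had at least 10 counts. In 1320 of these (2.25%) the lower CTX library was at least 2-fold above the higher CGE library, and in 906 (1.54%) the lower CGE library was at least 2-fold above the higher CTX library. The size of both sets depended on peak width. Counts scaled by the covered length gave 464 and 272 regions. Leaving out a library relaxes the 2-fold rule, so the numbers that follow could only stay level or rise. Without CTX replicate 1 there were 4758 and 3040, without CTX replicate 2 there were 4313 and 2658, and without CGE replicate 1 there were 3178 and 1340. Which set was the larger depended on the scaling, with 997 higher and 1142 lower in CTX under total counts and 1451 and 744 when scaled on promoter regions. Over all 91976 regions tested the shares were 6.18% and 4.19%. The regions of the covered set are called CTX-high and CGE-high below, as a description of order and size with no test. The 2-fold limit was set after the test had given no call.

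Separated regions lay away from start sites. Of 14428 regions within 1000 bp of a protein-coding start site, 0.298% were CTX-high and 0.173% CGE-high. Of 44332 other regions, 2.88% and 1.99% were. Intronic regions (3.23% and 2.18%) and intergenic regions (2.83% and 2.03%) were alike in this, and exonic ones lower (2.05% and 1.24%).

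**Figure D4:**
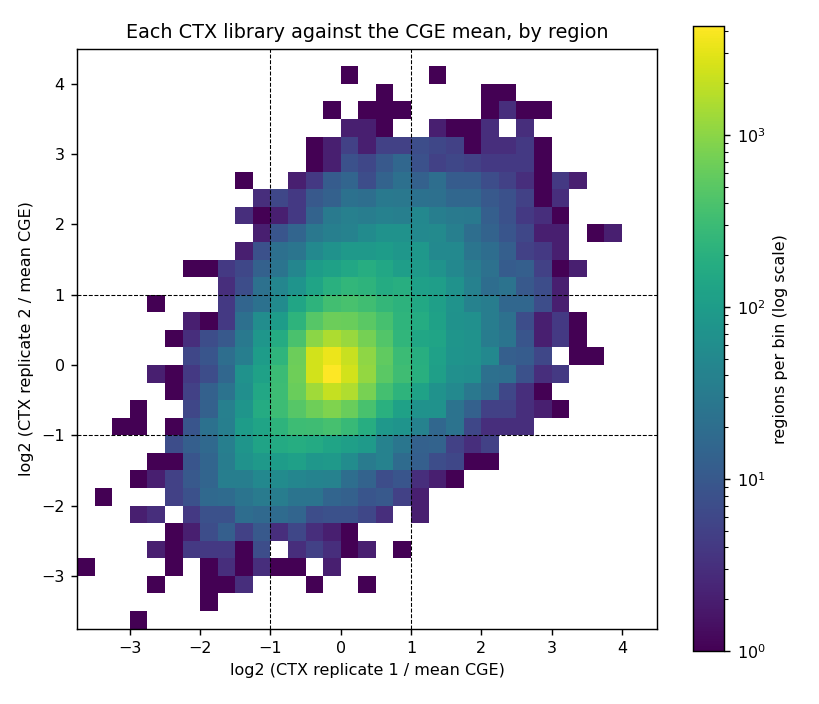
Number of regions (colour, log scale) by the log2 ratio of CTX replicate 1 to the mean log2 CPM of CGE (x axis) and of CTX replicate 2 to the same mean (y axis), for 58760 regions covered in each library. Dashed lines mark 2-fold; regions beyond them in both libraries fill the upper right and lower left corners, while many regions exceed 2-fold in 1 CTX library and stay near 0 in the other.

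Around pallial patterning genes, 9 of 100 such regions were CTX-high and 0 CGE-high, and around glutamatergic lineage genes 5 of 35 and 0, each region being given to the gene with the nearest start site. Over all genes tested these counts were 1266 and 866 of 56746 regions, the background for the locus counts that follow. The region over the Emx1 promoter (chr6:85185272-85195567) was at 102 and 125 against 39.0 and 38.9 CPM. Near Neurog2, the region at 18304 bp (chr3:127651439-127653464) was at 29.3 and 44.3 against 7.91 and 5.75 CPM, and near Neurod6, the one at 30791 bp (chr6:55645586-55650472) was at 60.7 and 26.8 against 9.93 and 6.18 CPM. The region in an intron of Faf1 that is nearest to Dmrta2 (chr4:109862173-109863761) had the widest separation of this group, with 1453 and 2813 counts in CTX against 144 and 194 counts in CGE. The Nfib promoter region (chr4:82491038-82515321) was at 314 and 320.2 CPM in CTX and at 137 and 140.1 CPM in CGE, values that nearly coincided within each tissue.

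GABA transmitter genes showed the reverse, with 6 of 19 regions CGE-high and none CTX-high. The promoter regions of Gad2 (chr2:22619197-22631239) and Slc32a1 (chr2:158604987-158618014) were among them. Gad2 had 31.2 and 35 CPM in CTX against 73.6 and 84.2 CPM in CGE. The region that spans Dlx1 and reaches over 25851 bp (chr2:71522849-71548699) was at 106 and 116 against 261 and 325 CPM. Gsx2 had 2 CGE-high regions among 4, of which the one at 5177 bp was at 19.9 and 21.5 against 58.1 and 58.4 CPM. Among striatal factors 10 of 137 regions were CGE-high and 4 CTX-high, and Meis1 held 5 of the 10, so that 1 gene made up much of the count.

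Some loci held regions of both kinds. Sox5 had 3 CTX-high regions and 1 CGE-high region in its introns, the former led by chr6:144451438-144455286 with 36.3 and 52.0 against 9.71 and 10.1 CPM and the latter, chr6:144610881-144612105, at 5.21 and 2.82 against 15.9 and 15.3 CPM. Sox9, whose own gene sum overlapped at 103 and 106 CPM against 97.4 and 103 CPM, had a CTX-high region 273782 bp away with 27.2 and 25.5 against 6.49 and 5.86 CPM and a CGE-high one 78177 bp away with 5.91 and 3.73 against 15.7 and 16.3 CPM. Npas3 and Erbb4 did likewise, Erbb4 with 3 CTX-high regions and 1 CGE-high region. Among migration and guidance receptors 19 of 220 regions were CTX-high and 5 CGE-high.

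Over all loci the widest separations, chosen after their values were seen, lay near genes outside the lists. A region 61187 bp from Usp44 (chr10:93771723-93772631) was at 12.8 and 13.8 CPM in CTX and 1.58 and 1.46 CPM in CGE. One 114544 bp from Bdnf, the neurotrophin (chr2:109558774-109560156), was at 12.8 and 17.2 against 1.81 and 1.24 CPM. In the other direction, a region 109555 bp from Zbtb18, a transcriptional repressor (chr1:177555376-177556705), was at 2.23 and 1.30 CPM in CTX against 21.2 and 19.6 CPM in CGE, and one 85795 bp from Wnt7a (a Wnt ligand gene, chr6:91324447-91325568) at 1.91 and 1.62 against 13.8 and 13.2 CPM. Each of the 4 had an edgeR adjusted p of 0.21. Counting by nearest gene, Frmd4a, Sorl1 and Tenm2 had the most CTX-high regions (5 each, with 0 CGE-high), out of 31, 27 and 33 regions. Meis1, Eipr1 and Sox11 had the most CGE-high regions (5 each), out of 30, 19 and 23. Sox11 also had 3 CTX-high ones and Meis1 had 1. Genes with many regions are favoured in such a ranking.

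The letters of the central 300 bp differed between the CTX-high and CGE-high regions away from start sites, 1277 and 881 regions against 44332 in all. TTGGCA, the nuclear factor I site, occurred in 32.6% of CTX-high windows (95% Wilson interval 30.1 to 35.2), in 18.4% of all windows and in 12.9% of CGE-high windows (10.9 to 15.3). TAATTA, the homeodomain core, occurred in 22.5% of CTX-high, 13.7% of all and 17.7% of CGE-high windows. TGACAG, the MEIS site, went the other way, with 22.1%, 23.3% and 34.7% (31.7 to 37.9). CAGCTG, the palindromic E-box, was in 20.3%, 21.8% and 32.5% (29.5 to 35.6). ACAAAG, the SOX site, was in 29.8%, 27.6% and 35.2% (32.1 to 38.4). The intervals cover counting error only, and neighbouring regions of a locus are not independent. Read the other way, 5.1% of windows with the nuclear factor I site were CTX-high and 1.4% CGE-high, and among windows without it 2.38% and 2.12% were.

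**Figure D5:**
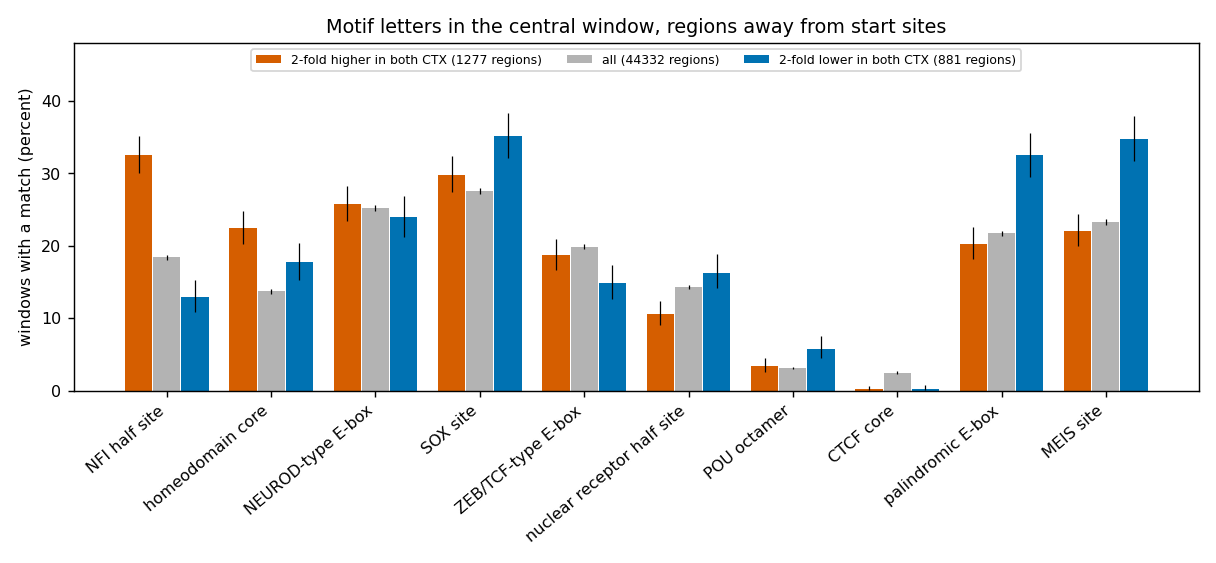
Share of central 300 bp windows (percent) with a match to each motif on either strand, for regions 2-fold higher in both CTX libraries (orange, 1277), all regions away from start sites (grey, 44332) and regions 2-fold lower in both CTX libraries (blue, 881). Bars carry 95% Wilson intervals; the nuclear factor I site has its highest bar in orange (32.6%), the MEIS site (34.7%) and palindromic E-box (32.5%) have theirs in blue, and the most frequent motif of the blue bars is the SOX site (35.2%, against 27.6% in grey).

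CAGATG, the E-box of the neurogenin and Neurod factors, was nearly level, with 25.8% of CTX-high, 25.2% of all and 24.0% of CGE-high windows. CACCTG, bound by ZEB and E-proteins, was at 18.7%, 19.8% and 14.9%. AGGTCA, a nuclear receptor site, was at 10.6%, 14.3% and 16.3%. ATGCAAAT, the POU octamer, was at 3.37%, 3.09% and 5.79%, and ACAAAG, a SOX site, at 29.8%, 27.6% and 35.2%. AGGTGTGA, a T-box site, was rare (1.64%, 1.32% and 1.36%). The core of the CTCF motif was found in 2.48% of all windows but in 2 CTX-high windows (0.157%) and 2 CGE-high windows (0.227%). GGGCGG, the SP and KLF box, was at 7.6%, 9.86% and 8.17%. A match is a description of the sequence and not a bound site, and the part of GC content or region width in these shares was not tested.

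The authors also deposited counts per transcription factor motif, summed over the peaks of a library that contain a match. None of 579 motifs was called by edgeR (0.0% in either direction), 53 (9.15%) had an unadjusted p under 0.05, DESeq2 called 2 and limma 0. In order, 148 (25.6%) were higher in both CTX libraries and 133 (23.0%) lower, and 0 were separated 2-fold. The lowest p among those higher in CTX belonged to HESX1, a homeodomain repressor of the anterior forebrain, at 933 and 823 CPM against 608 and 621 CPM (log2 fold 0.51, SE 0.10). NEUROD2 followed at 429 and 336 against 234 and 227 CPM (log2 fold 0.73, SE 0.15), the highest fold of any motif. Then came ESX1, LHX2, Lhx4, mix-a, CEBPG, NOTO, RAX2 and PRRX1, all homeodomain motifs apart from CEBPG, where RAX2 and PRRX1 had the same counts. LHX2 was at 749 and 802 against 630.2 and 630.1 CPM.

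Lower in CTX with the smallest p were E2F7, TCF4, RFX4, RFX3, PBX2, RFX5, RFX2, Rfx1, ELF4 and TFAP2B(var.2). TCF4, an E-protein, was at 633 and 764 CPM in CTX against 1029 and 953 CPM in CGE (log2 fold -0.50, SE 0.12). RFX4, of a family that drives ciliary genes, was at 911 and 974 against 1128 and 1168 CPM, and all 5 RFX motifs were lower in both CTX libraries. They resemble each other and do not count as separate observations. Each of these 20 motifs had an edgeR adjusted p of 0.52.

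Motifs were then counted over lists of chosen factors, which do not hold whole families. LIM and EMX homeodomain motifs were higher in both CTX libraries for 5 of 7, with none lower, and so were DLX and GSX motifs, the factors of the CGE, for 7 of 9. Dlx2 was at 8786 and 8793 CPM in CTX against 8013 and 7633 CPM in CGE although its gene count was lower in CTX. NFI motifs were higher for 2 of 3, T-box motifs for 1 of 3 and SOX motifs for 2 of 5 with 1 lower. Proneural and E-box motifs split into 2 higher and 4 lower among 12, the higher being NEUROD2 and Neurog1. Listed SP and KLF motifs were lower for 2 of 4, and outside the list SP2, SP3, KLF13, KLF14, KLF16 and Klf12 were lower too while KLF4, KLF9 and Klf1 overlapped. Outside the T-box list, TBX20 and TBX2 were higher and TBX19 lower. The listed MEIS and PBX (5), COUP-TF (4) and POU3F (4) motifs overlapped, whereas PBX2, which was not listed, was lower in both CTX libraries. Of 8 motifs of other regulators, 2 were higher and 3 lower. The MEIS1 motif was at 19129 and 17550.5 CPM in CTX and 18929.6 and 17676 CPM in CGE. Its deposited counts overlapped, in contrast to the TGACAG shares of separated windows, and the 2 measures rest on different sets of peaks. Replicates of some motifs lay more than 2-fold apart. Lhx8, for example, was at 1441 CPM in CTX replicate 1 against 5301 in CTX replicate 2, and MEIS3 at 7043 and 2457 CPM in CTX and 2602 and 6787 CPM in CGE.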

How the data were processed

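Single-nucleus ATAC-seq libraries were analysed from the files the authors deposited: per library, a peak list, a matrix of whole-number counts per peak and nucleus, and a matrix of counts per transcription factor motif and nucleus. Per the labels and the submitters' processing notes these came from Cell Ranger ATAC 1.2.0 on mm10 (GRCm38), with peaks called in each library separately. Peaks that overlapped by at least 1 bp between the 4 libraries were merged, and deposited counts were summed per library over merged regions, over protein-coding gene bodies with 2000 bp upstream (21911 gene symbols, GENCODE vM21), and over motifs. No nuclei were removed and no doublets were called. Start sites were those of the same annotation, and window sequences were read from the RefSeq GRCm38 genome.

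Sums were tested with edgeR 4.0.16 in R 4.3.3 (TMM scaling, filterByExpr, quasi-likelihood test, Benjamini-Hochberg adjustment over all features), 2 CTX against 2 CGE libraries. A call needed an adjusted p of 0.05 or less and no overlap between groups. CPM values are TMM-scaled, and folds are CTX over CGE on the log2 scale with the standard error (SE) of the fit. DESeq2 1.42.0 and limma 3.58.1 were alternatives, beside other scalings, filters, peak choices, the replicate number as a block and each library left out. The scripts were tested on simulated data.

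Named by rule were called members of 19 lists (171 genes), the transmitter, pallial and GABAergic factors, and the 10 motifs with the smallest p in each direction without overlap. The rule for other genes and for regions took the largest folds among calls in peaks of their own, and none met it. The other genes and the regions in the text were therefore chosen after their values were seen. The samples, members and lists were chosen with earlier results of these data known. Some genes and regions are not reported here.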

Additional observations from a re-analysis of the deposited data

How the results depend on the processing

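With DESeq2, 8605 regions, 764 genes and 2 motifs were called, and fitting all 8 libraries of the series gave 692 regions. The directions differed, with 5989 regions higher and 2616 lower in CTX by DESeq2 against 247 and 445 in the fit of all 8. Leaving out one library at a time gave 0 to 19493 called regions and 0 to 1716 called genes, and the high counts arose when a CTX library was left out. For regions at least 2-fold higher in both CTX libraries, leaving out a library gave 1527 to 4758 against 1320. For those at least 2-fold lower it gave 1340 to 3040 against 906. These 2-fold numbers could only stay level or rise, since the rule then compares fewer libraries. Scaling by covered length gave 464 and 272 such regions and 80 called genes, and taking all tested regions gave 5686 and 3857. Genes called were 0 with peaks of a single gene and 15 over common regions. Peaks that covered at least 0.5 of the width of a merged region in all 4 libraries were found in 21.6% of regions. With the replicate number as a block, 0 regions, 0 genes and 0 motifs were called, with 1637 genes at an unadjusted p under 0.05. The labels name no source that libraries of equal number share. The share of odd values among the deposited peak counts did follow the number, from 9.54% to 10.42% in the 4 libraries numbered 1 and from 5.17% to 5.85% in the 4 numbered 2, and the replicate differences of CTX and CGE correlated at 0.171 over regions, 0.168 over genes and -0.455 over motifs.

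Of 1262 pairs of a named gene and a setting, 1086 kept direction and side of the threshold, 132 passed it, 23 lost it and 21 turned. The named genes were those whose groups did not overlap in the main fit, so leaving out a library could hardly turn them. Only 4 genes passed the threshold in that fit, so most pairs that kept their side had passed in neither. The 1086 pairs are therefore no measure of how firm these folds are. With the covered-length offset the log2 fold became 0.0 for Pou3f2, -0.07 for Wnt3a, -0.01 for Wnt5a, 0.12 for Gsx1, 0.24 for Pbx3, 0.0 for Maf, -0.02 for Nrp2, -0.04 for Klf1, 0.18 for Nes, 0.04 for Notch1, 0.15 for Tubb3 and 0.02 for Elavl3. With peaks near start sites it was -0.01 for Trp73, -0.25 for Ebf2, -0.19 for Ebf3, -0.28 for Npas3, -0.07 for Igf2bp3 and 3.69 for Tek. With peaks of a single gene, Dlx2 (15.38) and Dlx6 (15.07) turned, since that setting drops the peaks each pair shares. Over common regions Mia was at -0.07. The cause of the other turns was not tested.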
